A study of Homo sapiens with 3 samples.

Results

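The p53 family genes TP63 and TP73, the MDM genes MDM2 and MDM4, and 5 classical p53 targets (ZMAT3, SESN1, GADD45A, TP53I3 and FDXR) were read in parental NCI-H1975 cells. The 9 genes were taken by name from a table of 60880 gene rows, and each had exactly 1 row. NCI-H1975 is a human cell line established from a lung adenocarcinoma and is known to carry a mutant p53. The study set it against a derivative resistant to anlotinib, a multikinase inhibitor that blocks receptors for vascular growth factors, and against resistant cells with TFAP2A knocked down. Values come from 1 wild-type RNA-seq library, labelled replicate 2, of untreated parental cells in serum-containing medium. Chromatin accessibility in the 2 wild-type ATAC-seq samples, and all data of the resistant and knockdown cells, were not analysed here. With a single library, cell states were not compared, no test was run, and the spread between cultures is unknown.

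p53 is a transcription factor that is stabilised after DNA damage and other stress and then switches on genes for cell cycle arrest, repair, cell death and metabolism. MDM2 is a ubiquitin ligase that marks p53 for destruction, and its relative MDM4 binds p53 and blocks its activity. MDM2 is itself a p53 target, which closes a feedback loop. p63 and p73 share the DNA-binding domain of p53 and recognise similar sites. p63 is best known as a factor of basal and squamous epithelium, and p73 for its part in multiciliated cells and the nervous system. Many lung cancer lines carry mutant p53, and some missense mutants of p53 have lost most of the ability to bind target sites.

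Several of the 9 genes have more than 1 annotated start, and a gene-level count adds up the transcripts from all of them. The sequences are shown for that reason, and because p53 is known to act on MDM2 through its internal promoter. RefSeq start windows (build GRCh38.p14, 250 bases before to 50 after each start) were found for 8 of the 9 genes, with 15 separate starts after starts less than 50 bases apart were counted once. GADD45A was the gene without an entry. The windows were searched for the p53 consensus, which is 2 adjacent copies of a 10-base motif, with up to 3 mismatches over the 20 bases. The consensus reads the same on both strands. A match was found in 4 of the 15 windows, and 5.20% of all 35116 windows in the table held one. All shares over the 35116 windows were taken without merging nearby starts, unlike the 15 windows. The limit was set with the MDM2 sites in view, and the count depends on it. With up to 2 mismatches 2 of the 15 windows held a match, against 0.649% of all windows, and with up to 4 mismatches 8 did, against 26.0%. In the 2 upstream sequences that follow, capitals mark the p53 consensus matches.
MDM2 start 2, chr12:68808767-68809016, plus strand: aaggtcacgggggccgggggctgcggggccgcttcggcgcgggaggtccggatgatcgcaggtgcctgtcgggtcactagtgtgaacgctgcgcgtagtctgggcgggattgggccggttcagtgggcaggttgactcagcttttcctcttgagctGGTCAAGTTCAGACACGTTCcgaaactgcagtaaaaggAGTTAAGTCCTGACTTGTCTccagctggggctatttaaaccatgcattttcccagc
TP73 start 2, chr1:3690422-3690671, plus strand: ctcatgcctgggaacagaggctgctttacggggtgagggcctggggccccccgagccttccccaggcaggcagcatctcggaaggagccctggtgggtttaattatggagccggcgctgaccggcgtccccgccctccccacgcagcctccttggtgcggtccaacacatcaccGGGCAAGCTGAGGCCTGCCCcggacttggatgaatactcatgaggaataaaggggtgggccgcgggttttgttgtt
The MDM2 start lies 845 bases downstream of the first one and is the internal promoter. Its window held 2 matches, beginning 94 and 56 bases before the start, and the window of the first MDM2 start held none. The TP73 start is the internal one that gives rise to p73 without the N-terminal transactivation domain, and its match began 76 bases before the start. The matches can be compared base by base, each with the number of bases that depart from the consensus.
MDM2, 94 bases before start 2, chr12:68808923-68808942, plus strand, 2 mismatches: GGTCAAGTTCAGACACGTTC
MDM2, 56 bases before start 2, chr12:68808961-68808980, plus strand, 3 mismatches: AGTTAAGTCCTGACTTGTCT
TP73, 76 bases before start 2, chr1:3690596-3690615, plus strand, 2 mismatches: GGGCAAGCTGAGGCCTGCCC
SESN1, 49 bases before start 3, chr6:109009018-109009037, minus strand, 3 mismatches: GGACAAGTCTCCACAAGTCA
FDXR, 21 bases before start 1, chr17:74872996-74873015, minus strand, 3 mismatches: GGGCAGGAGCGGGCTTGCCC
SESN1 had its match at the third of 3 starts and FDXR at the first of 2. The windows of TP63, MDM4, ZMAT3 and TP53I3 held no match of this kind. Copies of the motif with bases between them, other kinds of site and sequence outside the windows were not searched. TP63, MDM4 and TP53I3 had only 1 start each in the search. No internal start of TP63, like the second start of TP73, was searched. The AP-2 motif GCCNNNGGC, searched because TFAP2A was the factor knocked down in the study, occurred in 4 of the 15 windows. They were the first and second starts of TP73, the second of MDM2 and the first of SESN1. The motif reads the same on both strands, did not overlap a p53 match in these windows, and occurred in 23.2% of all windows. A match describes the letters only, and binding was not measured.

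**Figure D1:**
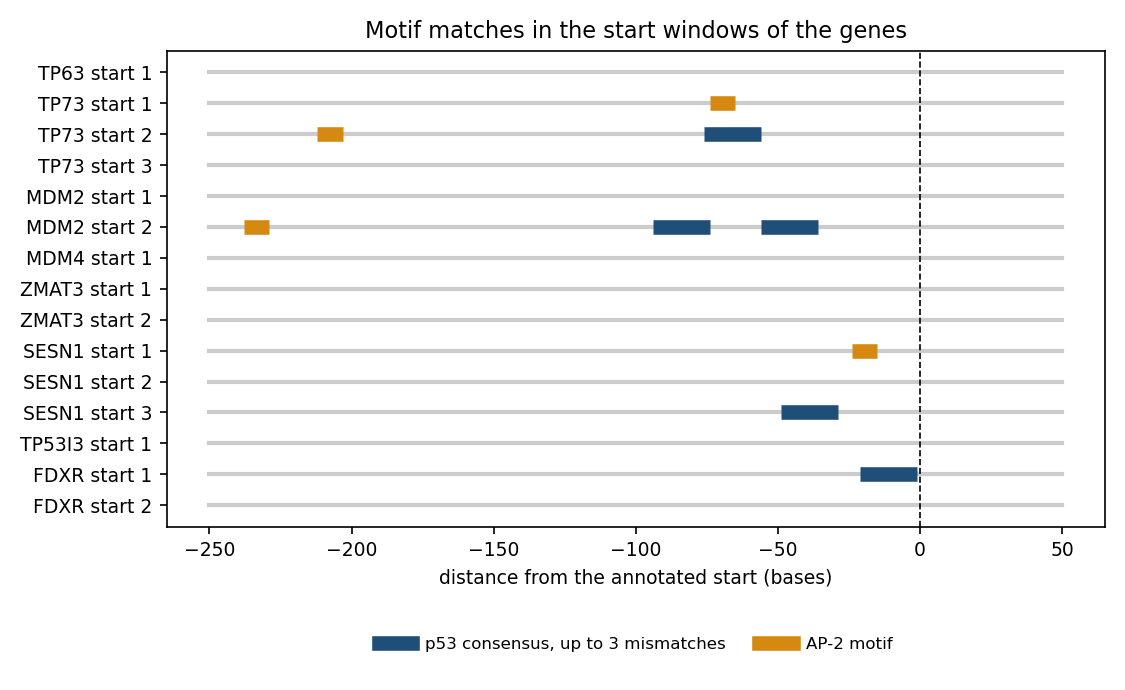
Start windows of 8 genes, 1 line per annotated start. The x axis is the distance in bases from the start (dashed line at 0). Blue bars are p53 consensus matches with up to 3 mismatches and orange bars are AP-2 motifs. MDM2 start 2 carries 2 blue bars, at 94 and 56 bases before the start, and TP73 start 2, SESN1 start 3 and FDXR start 1 carry 1 each.

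The library held 25012733 counts, so 1 count equalled 0.04 CPM (counts per 1000000 counts of the library) and a gene with 0 counts was given the usual limit of 3 counts, or 0.12 CPM. The 2-sided interval of such a gene ends somewhat higher, at 0.147 CPM. Intervals in brackets are exact 95% Poisson or binomial intervals and cover counting error only. A gene was called detected at 10 counts or more, as were 69.7% of 19046 protein-coding genes. Read numbers grow with transcript length, and no transcript lengths were used here, so an order of 2 genes by counts or CPM is an order of reads and not of molecules. In bulk RNA, a few cells with much of a transcript cannot be told apart from many cells with little. All 7 markers of epithelial or lung adenocarcinoma cells were detected, from 2926 counts for the lung lineage factor NKX2-1 to 132533 for keratin KRT7. None of 11 markers of leukocytes, fibroblasts, endothelium and red cells reached 10 counts. Together those 11 had 7 counts, with 2 each for PTPRC and COL3A1.

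All 9 genes were detected, against 69.7% of all protein-coding genes, at levels between 2.76 and 66.2 CPM. In order of reads, GADD45A came first, followed by TP53I3, MDM4, FDXR, MDM2, TP63, ZMAT3, TP73 and SESN1. Neighbours in this order differed beyond counting error at all 8 steps. The closest pair was TP53I3 and MDM4, whose count ratio was 1.15 (1.04 to 1.26), and the widest step was the one between ZMAT3 and TP73, with a ratio of 2.71 (2.18 to 3.38). The first gene had 24.0 times the counts of the last. The median of the 9 was 22.0 CPM, against 9.87 CPM over all protein-coding genes, detected or not. Among detected protein-coding genes only, the median was 26.4 CPM, and 4 of the 9 genes lay above it. The 9 genes together held 5626 counts, or 0.0225% of the library (0.0219 to 0.0231).

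**Figure D2:**
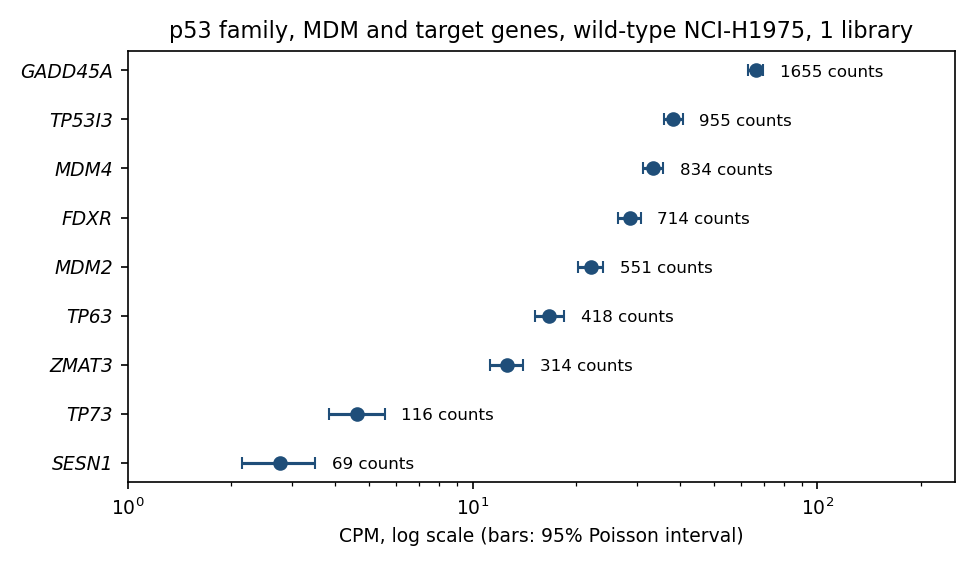
Level of the 9 genes in 1 wild-type library. The x axis is CPM on a log scale, points are the level, bars are 95% Poisson intervals and the label is the read count. GADD45A is highest at 66.2 CPM and SESN1 lowest at 2.76 CPM.

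TP63 carried most reads of the 2 p53 relatives. TP63 (ENSG00000073282.12_3) had 418 counts, or 16.7 CPM (15.1 to 18.4), above 57.3% of protein-coding genes. TP73 (ENSG00000078900.14_4) had 116 counts, or 4.64 CPM (3.83 to 5.56), above 42.6% of them. Among detected protein-coding genes only, TP63 lay above 38.7% and TP73 above 17.7%. TP63 thus had 3.60 times (2.93 to 4.47) the counts of TP73, and a share of 78.3% (74.5 to 81.7) of the pair. Both genes give long forms with the transactivation domain and short forms without it, which differ in what they do to p53 targets. Gene-level counts do not separate these forms. TP73-AS1, a long non-coding RNA gene named for its place beside TP73, had 635 counts, or 25.4 CPM (23.5 to 27.4), which was 5.47 times (4.48 to 6.73) the count of TP73. The 2 further genes named as antisense to TP73, TP73-AS2 and TP73-AS3, overlap it in RefSeq and had 1 count each. A transcribed pseudogene, GFOD3P, overlaps TP73 there too and had no row under that symbol. TP73-AS1 had no RefSeq position under its symbol, so whether it overlaps TP73 was not looked up. The kit is directional per the labels, but no source used here gives the strand setting of the counting, so reads of a gene and its antisense partner may not be separated.

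Genes listed as regulated by p63 in epithelium, in either direction, split into a group with many reads and a group with almost none. Of 14 such genes, 6 were detected, or 42.9%, against 69.7% of all protein-coding genes. ITGB4, the integrin chain of hemidesmosomes, had 12159 counts, or 486 CPM, the 14-3-3 protein SFN had 6802 counts, or 272 CPM, and the desmosome-associated protein PERP had 3322 counts, or 133 CPM. These 3 are not confined to squamous cells, and simple epithelia are known to express them too. JAG2, a Notch ligand, had 2828 counts, and S100A2 had 668 counts. The other 8 were under 10 counts: the squamous keratins KRT14 and KRT5 had 8 and 2, CSTA had 9, TRIM29 had 8, DSC3 had 2, ZNF750 and PKP1 had 1 each and DSG3 had 0. ZNF750 overlaps TBCD in RefSeq, which had 2864 counts, and the part of this overlap in the low count of ZNF750 was not tested. The median over all 14 was 0.34 CPM, against 9.87 CPM over all protein-coding genes.

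MDM4 had more reads than MDM2. MDM4 (ENSG00000198625.12_2) had 834 counts, or 33.3 CPM (31.1 to 35.7), above 69.7% of protein-coding genes. MDM2 (ENSG00000135679.23_5) had 551 counts, or 22.0 CPM (20.2 to 23.9), above 61.8% of them. The ratio of MDM4 to MDM2 counts was 1.51 (1.36 to 1.69). Which of the 2 MDM2 starts shown earlier gave these reads cannot be read from a gene-level count. The MDM2 gene overlaps the carboxypeptidase M gene in RefSeq, which had 483 counts, and reads that fall on both could have been dropped or assigned to either.

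Other regulators of p53 were well covered by reads. All 21 listed regulators were detected, with a median of 77.3 CPM, and 18 of them lay above the median detected protein-coding gene. The share detected over all protein-coding genes was 69.7%. HUWE1, a large ubiquitin ligase with p53 among its substrates, had 22185 counts, or 887 CPM. The nucleolar protein NPM1 had 11822 counts, or 473 CPM, and the ribosomal protein RPL5, which binds MDM2 under ribosomal stress, had 10195 counts, or 408 CPM. The ubiquitin-specific protease USP7, which removes ubiquitin from MDM2 and p53, had 2481 counts, or 99.2 CPM. Lower on this list stood PPM1D, a phosphatase that switches off the damage response and is itself a p53 target, with 375 counts, or 15.0 CPM, and the ubiquitin ligase RCHY1 with 304 counts, or 12.2 CPM. CDKN2A, whose locus encodes both the MDM2 inhibitor ARF and the CDK inhibitor p16, had 2085 counts, or 83.4 CPM, and the count does not separate the 2 products. All 10 damage kinases and sensors upstream of p53 were detected too, with a median of 51.0 CPM. The DNA-dependent protein kinase PRKDC had 9287 counts, or 371 CPM, HIPK2, a kinase that phosphorylates p53, had 6345 counts, or 254 CPM, and the damage mediator MDC1 had 2159 counts, or 86.3 CPM. The kinases ATM and ATR had 1253 and 1298 counts, and their checkpoint partners CHEK2 and CHEK1 had 453 and 451.

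GADD45A, a stress protein that inhibits the mitotic kinase complex and takes part in DNA repair, had the most reads of the 9 genes. It (ENSG00000116717.12_3) had 1655 counts, or 66.2 CPM (63.0 to 69.4), above 82.6% of protein-coding genes. Its paralog GADD45B, better known as a gene induced by transforming growth factor beta and NF-kappaB, had 1896 counts, or 75.8 CPM (72.4 to 79.3). The ratio of GADD45A to GADD45B counts was 0.873 (0.817 to 0.933). GADD45G had 31 counts, or 1.24 CPM (0.842 to 1.76). GADD45A and GADD45B thus took 46.2% (44.6 to 47.9) and 52.9% (51.3 to 54.6) of the family's reads, and GADD45G took 0.865% (0.589 to 1.23).

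SESN1 had the fewest reads of the 9 genes. Sestrins are stress-induced proteins that restrain mTORC1, and SESN1 is the family member most closely tied to p53, whereas SESN2 also responds to other stresses through NRF2 and ATF4. SESN1 (ENSG00000080546.13_3) had 69 counts, or 2.76 CPM (2.15 to 3.49), above 39.2% of all protein-coding genes and 12.8% of the detected ones. SESN2 had 1855 counts, or 74.2 CPM (70.8 to 77.6), and SESN3, which is known to be driven by FOXO factors, had 139 counts, or 5.56 CPM (4.67 to 6.56). SESN2 held 89.9% (88.5 to 91.2) of the sestrin reads, SESN3 6.74% (5.69 to 7.91) and SESN1 3.34% (2.61 to 4.21). The SESN1 to SESN2 count ratio was 0.0372 (0.0288 to 0.0473). The SESN1 gene overlaps ARMC2 in RefSeq, which had 63 counts, so the separate counts of the 2 are uncertain.

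ZMAT3 encodes a zinc finger RNA-binding protein that regulates splicing and is induced by p53. It (ENSG00000172667.10_3) had 314 counts, or 12.6 CPM (11.2 to 14.0), above 52.9% of all protein-coding genes and 32.4% of the detected ones. Of the other genes of the ZMAT name, ZMAT2 and ZMAT5 had 1581 and 786 counts, or 63.2 and 31.4 CPM, ZMAT1 had 111 counts, or 4.44 CPM, and ZMAT4 had 0. ZMAT3 held 11.2% (10.1 to 12.5) of the reads of these 5 genes. ZMAT2 and ZMAT5 are known as parts of the splicing machinery and are not p53 targets by the lists used here.

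**Figure D3:**
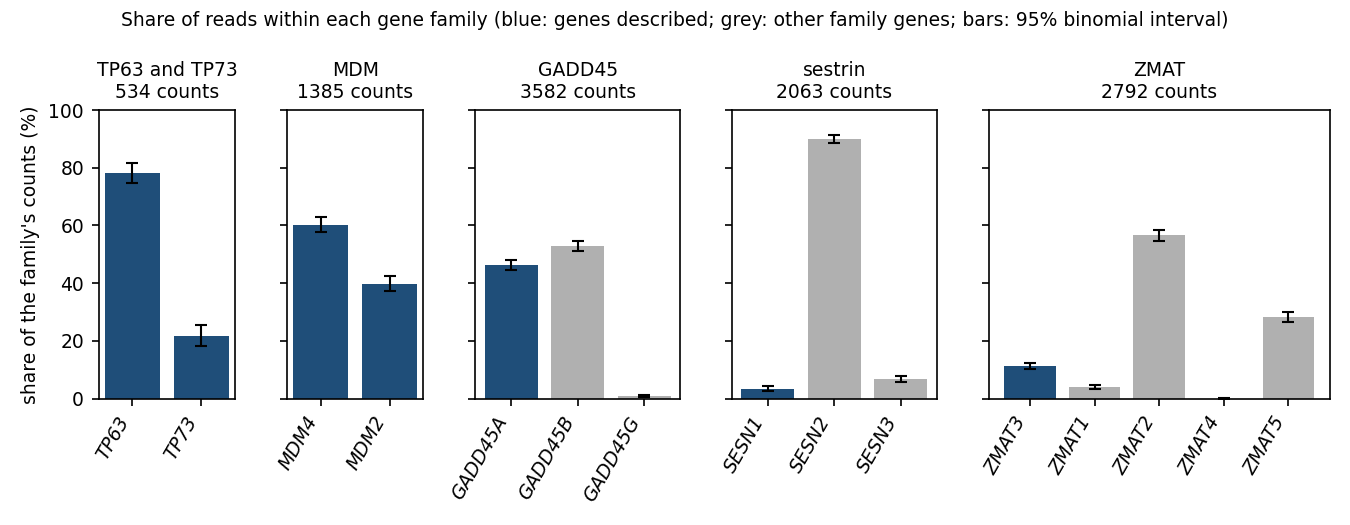
Share of reads within 5 gene families, in percent of the family's counts, with exact 95% binomial intervals as bars. Blue columns are the genes described and grey columns are other genes of the family. SESN1 takes 3.34% of the sestrin reads against 89.9% for SESN2, while GADD45A takes 46.2% and GADD45B 52.9% of the GADD45 reads.

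Both oxidoreductase targets lay above the median detected protein-coding gene. TP53I3, also called PIG3, is a quinone oxidoreductase tied to reactive oxygen species. It (ENSG00000115129.13_2) had 955 counts, or 38.2 CPM (35.8 to 40.7), above 72.6% of protein-coding genes. It overlaps FAM228B in RefSeq, which had 56 counts. Its relative CRYZ, the zeta-crystallin quinone reductase, had 109 counts, and the ratio of TP53I3 to CRYZ counts was 8.76 (7.18 to 10.8). Among other genes of this enzyme superfamily, VAT1 had 10954 counts, or 438 CPM, the prostaglandin reductases PTGR1 and PTGR2 had 1361 and 204 counts, the mitochondrial fatty acid synthesis enzyme MECR had 762 and CRYZL1 had 214.

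FDXR is the ferredoxin reductase of mitochondria, which passes electrons to the ferredoxins for iron-sulphur cluster assembly and for steroid-metabolising P450 enzymes. It (ENSG00000161513.11_3) had 714 counts, or 28.5 CPM (26.5 to 30.7), above 66.5% of protein-coding genes. FDX1, 1 of its 2 ferredoxin partners, had 472 counts, or 18.9 CPM (17.2 to 20.7), which gave an FDXR to FDX1 count ratio of 1.51 (1.34 to 1.70). FDX2, the ferredoxin of cluster assembly, had only 3 counts, or 0.12 CPM (0.0247 to 0.351). FDX2 overlaps a read-through gene, FDX2-ZGLP1, in RefSeq, and the part of that overlap in the low count was not tested. Of 12 partners 8 were detected, or 66.7%, near the 69.7% of all protein-coding genes. The cluster assembly genes NFS1 and ISCU had 1177 and 746 counts, and LYRM4 had 334. Among the mitochondrial P450 genes, CYP24A1, which degrades vitamin D, had 701 counts, or 28.0 CPM, and CYP27A1 and CYP27B1 had 396 and 89 counts. The steroid-forming genes CYP11A1, CYP11B1 and CYP11B2 were at 0.

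**Figure D4:**
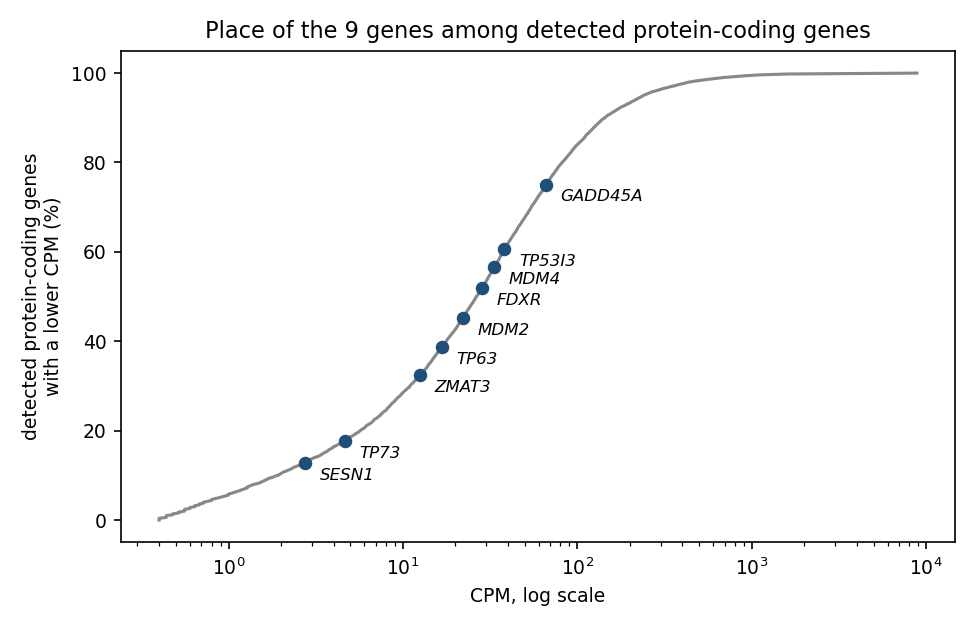
Place of the 9 genes (blue points) among detected protein-coding genes (grey line). The x axis is CPM on a log scale and the y axis the percentage of 13275 detected protein-coding genes with a lower CPM. GADD45A lies at 75.0%, FDXR at 51.9% and SESN1 at 12.8%.

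Beyond the 5 targets, 58 further p53 target genes in 5 lists were read. Of these, 55 were detected, or 94.8%, against 69.7% of all protein-coding genes. The median was 22.0 CPM over the 9 genes described above, 19.7 CPM over all 58 and 9.87 CPM over all protein-coding genes. Above the median detected protein-coding gene lay 26 of the 58. All 10 genes for secreted and surface proteins were detected with a median of 102 CPM, the highest of the 5 lists. The thrombospondin THBS1 and the ephrin receptor EPHA2 were among its highest, with 7473 and 5947 counts. GDF15, a secreted stress cytokine of the TGF-beta superfamily, had 5420 counts, or 217 CPM.

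All 8 cell cycle targets were detected, against 69.7% of all protein-coding genes, with a median of 36.3 CPM. Of these 8, 5 lay above the median detected protein-coding gene. SFN was followed by the CDK inhibitor CDKN1A with 2667 counts, or 107 CPM, and by GTSE1, a G2-phase protein that restrains p53, with 1481 counts, or 59.2 CPM. The antiproliferative gene BTG2 had 83 counts, or 3.32 CPM, and RPRM, a mediator of G2 arrest, had 20 counts. All 19 cell death targets were detected, with a median of 19.3 CPM. Of the 19, 9 lay above the median detected protein-coding gene. PERP, the TRAIL receptor TNFRSF10B and the AKT inhibitor PHLDA3 led them with 3322, 3258 and 2874 counts. BAX, PMAIP1 and BBC3, which act on mitochondria in apoptosis, had 1503, 829 and 284 counts, or 60.1, 33.1 and 11.4 CPM. TP53AIP1 stood lowest with 12 counts. All 8 repair targets were detected, with a median of 20.3 CPM, and PCNA, XPC and FANCC led with 2779, 1573 and 648 counts. Only 2 of the 8 repair targets lay above the median detected protein-coding gene.

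The metabolism and autophagy list had the lowest median of the 5, 7.72 CPM. Of its 13 genes 10 were detected, or 76.9%, against 69.7% of all protein-coding genes. The glutathione peroxidase GPX1 had 15426 counts, or 617 CPM, and after SESN2 the lysosomal fucosidase FUCA1 came next with 692 counts. TIGAR, a fructose bisphosphatase that slows glycolysis, had 9 counts, the copper chaperone SCO2 had 4 and the mitochondrial quality control gene SPATA18 had 2. SCO2 overlaps TYMP and NCAPH2 in RefSeq, which had 1624 and 2295 counts, and TIGAR overlaps the pseudogene RPS15P7. The part of these overlaps in the low counts was not tested.

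**Figure D5:**
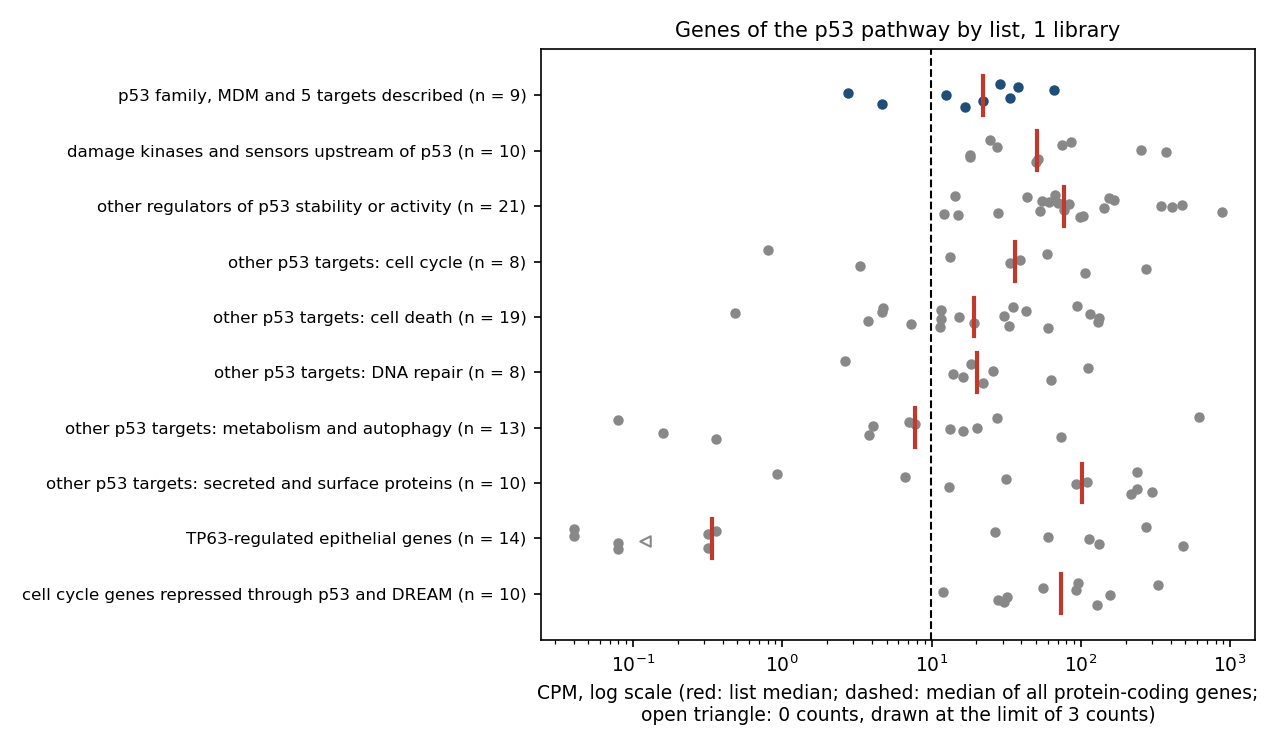
Levels of p53 pathway genes by list. The x axis is CPM on a log scale, each point is 1 gene, an open triangle is a gene with 0 counts drawn at the limit of 3 counts, red lines are list medians and the dashed line is the median of all protein-coding genes at 9.87 CPM. The 9 genes described (blue) have a median of 22.0 CPM. The list of p63-regulated epithelial genes splits into 6 genes with 26.7 CPM or more and 8 genes under 0.4 CPM.

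Genes that p53 is known to repress through p21 and the DREAM complex, which drive the G2 and M phases, were all detected. Of all protein-coding genes, 69.7% were detected. Their median over 10 genes was 74.0 CPM, and 9 of the 10 lay above the median detected protein-coding gene. The transcription factor MYBL2 had 8265 counts, or 330 CPM, the mitotic kinase PLK1 had 3949 counts, or 158 CPM, and cyclin CCNB1 had 3222 counts, or 129 CPM. CDC25C had the lowest count of the list, 297. It overlaps FAM53C in RefSeq, which had 2148 counts, and the part of this overlap in the count of CDC25C was not tested.

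Of 9 long non-coding RNA genes with a row 6 were detected, or 66.7%, near the 69.7% of all protein-coding genes. The share over all long non-coding RNA genes was not computed. NEAT1, the scaffold of nuclear paraspeckles, had 11021 counts, or 441 CPM, PURPL, a p53-induced RNA that in turn lowers p53, had 643 counts, or 25.7 CPM (23.8 to 27.8), and TP73-AS1 followed with the 635 counts given earlier. MEG3 had 5 counts, and PANDAR and PINCR had 0. MIR34AHG, the host gene of the p53-induced microRNA miR-34a, had 332 counts, or 13.3 CPM (11.9 to 14.8). Mature microRNAs are not measured by gene counts of this kind. The mature form is shown because its seed defines the transcripts it can pair with, and capitals mark that seed, bases 2 to 8.
hsa-miR-34a-5p: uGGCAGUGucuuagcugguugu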

How the data were processed

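Per-gene read counts of 1 RNA-seq library (wild-type NCI-H1975, replicate 2) were used. The authors deposited raw, whole-number counts per gene without a header. Per the submitters' processing notes, STAR, featureCounts and the build hg19 were among the tools of both assays. For the counting, the strand setting, the gene annotation and the handling of shared or multi-mapping reads are not stated in the labels. Reads shared by overlapping or near-identical genes could have been dropped or split.

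Identifiers were matched without version to current symbols (56373 of 60880 rows, 99.8% of counts). Gene type, overlaps between genes and sequences came from RefSeq (GRCh38.p14), a later build than that of the counts, and no hg19 coordinates were used. Counts were divided by the library total of 25012733 and scaled to CPM. Poisson intervals are Garwood's, and shares and count ratios have Clopper-Pearson intervals, all at 95%. The reads carry no molecular identifiers, so intervals cover counting error only.

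The genes, the 15 lists and the pairs were chosen with earlier results of these data known. The naming rule took the 9 genes, their paralogs, the paired genes, the 3 highest of each list and up to 3 members under 10 counts. Other genes named were chosen after their values were seen. TP53COR1 had no matching row, and a few genes of the pathway are not reported here. The mismatch limit of the p53 search was set with the MDM2 sites in view. Alternatives were other detection minimums, totals and mismatch limits. The code was tested on simulated counts. Intervals used SciPy 1.17.1 and tables pandas 2.3.3 with NumPy 2.4.6, under Python 3.11.15, and figures were drawn with Matplotlib 3.10.9.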

Additional observations from a re-analysis of the deposited data

How the results depend on the processing

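All 9 genes were detected at a minimum of 1 count, of 50 counts and of 1 CPM. Of the 14 other lists, the number detected stayed within 1.5 times of its value at 50 counts and at 1 CPM in all, and at 1 count in all but 2. The p63-regulated epithelial genes had 13 of 14 members with at least 1 count, and the markers of other cell types had 5 of 11. Leaving mitochondrial genes, the 10 genes with the highest counts or all but protein-coding genes out of the total raised every CPM by a factor of 1.06, 1.08 or 1.09. These totals leave the order of the genes and the count ratios as they are. Ranked among detected protein-coding genes only, the 9 genes lay above 12.8% to 75.0% of them, instead of 39.2% to 82.6% of all protein-coding genes. The mismatch limits of 2 and 4, which gave 2 and 8 start windows with a p53 match in place of 4, were chosen after seeing the data. Counts per kilobase of coding sequence were not run, because coding lengths were not at hand. No paired analysis was possible because the counts come from a single library, and for the same reason no replicate was left out.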

Other observations

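Further genes whose names record a link to p53 were chosen after their counts were seen. TP53I11, TP53INP1 and TP53TG1 are also counted in the lists above. These genes ranged from abundant to undetected. TP53I11, a p53-inducible membrane protein, had 2354 counts, or 94.1 CPM (90.3 to 98.0), and TP53I13 had 1736 counts, or 69.4 CPM (66.2 to 72.7). TP53INP2, which takes part in autophagy, had 772 counts, or 30.9 CPM (28.7 to 33.1), whereas its relative TP53INP1, a p53 target, had 117 counts, or 4.68 CPM (3.87 to 5.61). TP53TG1 had 279 counts, TP53TG5 had 11 and the 6 TP53TG3 genes with a row were at 0. The TP53TG3 copies are near-identical, and their separate values are uncertain. In RefSeq, TP53INP1 overlaps NDUFAF6, which had 243 counts, and TP53TG5 overlaps SYS1, which had 961. TP53I13 overlaps GIT1 and ABHD15, which had 3472 and 626 counts. The part of these overlaps in the counts was not tested.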
